A study of Mus musculus with 12 samples.

Results

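The question addressed here was whether perigonadal white fat without Cdk7 answers CL as fat with intact Cdk7 does. The quantity measured was the CL response of ko fat minus the CL response of wt fat, (ko CL minus ko saline) minus (wt CL minus wt saline), on RNA-seq counts from all 12 libraries of the study. The mice were C57BL/6, 9 weeks old, and were either Cdk7 aKO animals, an adipose-specific knockout (called ko), or control littermates (called wt). They were given CL or saline for 7 days, and tissue was taken at zeitgeber time 9. Each of the 4 groups (ko CL, ko saline, wt CL, wt saline) had 3 libraries, each from RNA of 2 pooled mice, so that 6 mice stood behind a group and p-values measure the spread between pools. Groups came from the sample titles. A separate genotype entry in the labels follows the treatment and contradicts 6 of the 12 titles. The driver of the knockout is not given in the sources used here.

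Cdk7 is the kinase of the general transcription factor TFIIH, which acts when RNA polymerase II starts transcription, and it also activates the kinases of the cell cycle. CL is given only by its abbreviation, which in this field stands for an agonist of the beta-3-adrenergic receptor. In wild-type mice such an agonist sets off lipolysis in fat cells, and over days white fat gains mitochondria, burns and rebuilds fatty acids, and takes on brown-like features. An interaction term asks, gene by gene, whether that response differs in size or direction between the genotypes, whatever level the gene had to start with.

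Counts assigned to genes ran from 21892817 to 27985019 per library, and 16554 genes passed the filter on low counts. Cdk7 (ENSMUSG00000069089, GRCm38 chromosome 13, 100702631 to 100730939, minus strand) had 23.6, 19.5 and 18.1 CPM in ko CL libraries and 11, 11.7 and 11.5 CPM in ko saline libraries, against 32.2, 30.4 and 35.4 CPM in wt CL libraries and 29.7, 30.0 and 29.3 CPM in wt saline libraries. All ko libraries lay below all wt libraries, and within ko the CL libraries lay above the saline ones, with an interaction of 0.70 ± 0.13 (SE, edgeR adjusted p = 0.000919). None of the 27 adipocyte genes found in the files was at 0 in any library. The same held for macrophage and endothelial markers, so detection alone does not identify the tissue. The tissue also held other material. The summed level of 20 duct and general epithelial genes was 23.1 to 44 CPM in ko CL, 162 to 235 CPM in ko saline, 16.1 to 22.7 CPM in wt CL and 47.6 to 103 CPM in wt saline, and 30 motile cilia genes were likewise highest in ko saline (237 to 307 CPM), with wt saline library 1 above the other wt saline libraries. Seminal vesicle secretion genes, chosen after their values were seen, stood out in 1 library: Svs2 was at 159 CPM in wt saline library 2 and at no more than 7.35 CPM in any other. Their falls in wt (Svs1, Svs2, Svs4, Svs5 and Pate4, all classed as lost) therefore rest on that library.

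The responses differed between the genotypes for a large share of the genes. In edgeR's quasi-likelihood test, adjusted over all 16554 genes, the interaction was called at an adjusted p of 0.05 for 7510 genes (45.4% of those tested). CL moved 3607 genes (21.8%) more positively in ko than in wt and 3903 (23.6%) more negatively. With library size alone in place of TMM scaling, which uses a trimmed mean of log ratios, 5386 genes were more positive and 2267 more negative. That scaling moved the median interaction of all genes to 0.20, against -0.028 with TMM. Among called interactions, it moved the share more positive in ko to 70.4%, against 48.0% with TMM. The 10 most abundant genes took 8.97% to 10.7% of the counts in ko CL and 10.3% to 12.0% in ko saline, against 23.5% to 24.4% in wt CL and 15.1% to 16.9% in wt saline. It moved the median wt response to -0.33, so small responses depend on the scaling, while no gene named here with a called interaction changed the sign of that interaction under it.

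Genes were put into classes by the calls in the interaction and in each genotype. A response was lost where wt was called and ko was not, reduced or enhanced where both moved the same way and ko moved less or more, reversed where they moved in opposite directions, and gained where ko alone was called, all with a called interaction. It was kept where both were called in the same direction, the interaction was not called and its 95% interval lay within a 2-fold difference either way, and unresolved where that interval was wider. Among genes that rose in wt, 1133 lost the rise (6.84%), 148 had it reduced (0.894%), 717 fell in ko instead (4.33%), 513 kept it (3.1%) and 151 were unresolved (0.912%). Among those that fell in wt, 479 lost the fall (2.89%), 56 had it reduced (0.338%), 800 rose in ko instead (4.83%), 550 kept it (3.32%) and 341 were unresolved (2.06%). The ko fat gained 2017 rises (12.2%) and 1518 falls (9.17%) and enhanced 125 rises (0.755%) and 250 falls (1.51%), and 267 genes had a called interaction with neither response called. With TMM gained rises were the most numerous class, with 826 genes that changed at least 2-fold; with library size alone there were 1076 gained rises, 1951 reversed falls, 1889 lost falls and 1721 kept falls. Membership of a class thus depends on the scaling.

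**Figure D1:**
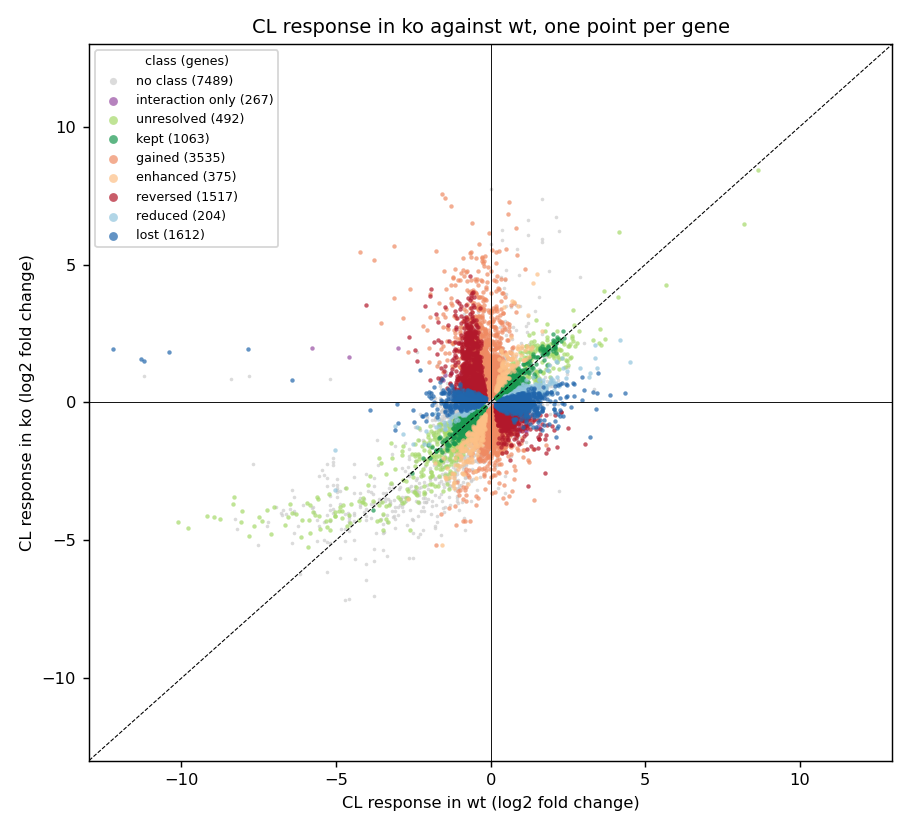
The log2 fold change of CL against saline in ko (vertical axis) is plotted against that in wt (horizontal axis) for 16554 genes, coloured by class, with the dashed line marking equal responses. Lost genes (1612) lie along the horizontal axis, gained genes (3535) along the vertical axis, and kept genes (1063) along the dashed line. The lost falls farthest to the left are the seminal vesicle genes, which rest on wt saline library 2.

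The larger wt responses show how much was left of them in ko. Of 709 genes that rose at least 2-fold in wt, with a median of 1.40 on the log2 scale, the median response in ko was 0.39. In 261 of them the rise was lost, in 86 reduced and in 67 reversed, together 58.4%, whereas 77 were kept. The 723 genes that fell at least 2-fold in wt had medians of -0.98 in ko and -1.40 in wt, and 30.8% of them were lost, reduced or reversed, with 89 kept and 295 unresolved. These genes were chosen by their size in wt, which by itself makes the ko values look smaller, so no test was made of the shares.

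Most lost responses ended short of the wt level without a called difference under saline. Of the 1133 lost rises, 915 (80.8%) had no called difference between ko saline and wt saline and were lower in ko CL than in wt CL, with a median difference (ko minus wt) of -0.64 on the log2 scale. Only 94 were already higher in ko saline, and 67 were lower there. The 479 lost falls had 357 (74.5%) of the same kind, at a median of 0.71 above wt CL, and 58 that were already lower in ko saline. Reversed genes looked alike in this respect, with 526 of 717 reversed rises (73.4%) and 701 of 800 reversed falls (87.6%) not called different under saline. These counts describe positions, because the contrasts share libraries.

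**Figure D2:**
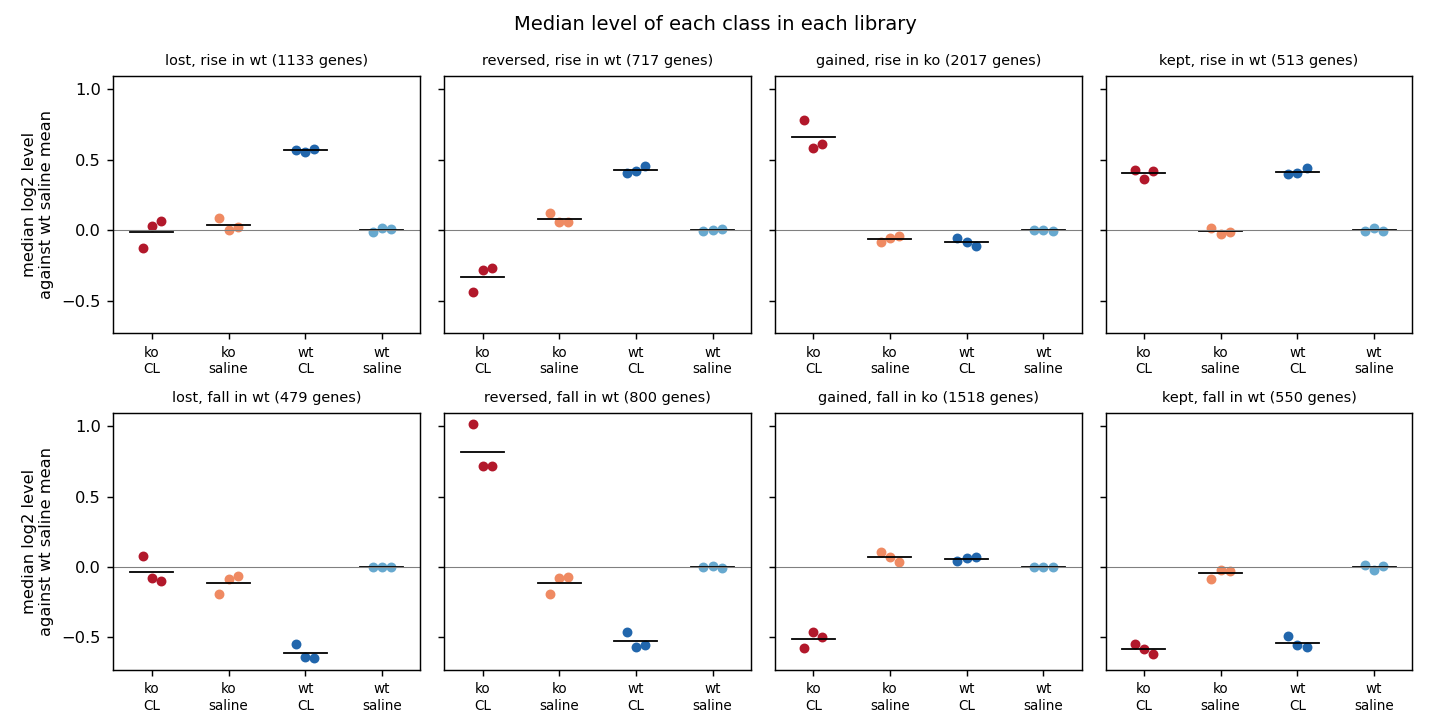
Each point is the median log2 level of a class in 1 library, relative to the mean of the wt saline libraries, with the line at the mean of 3 libraries. Lost rises lie at -0.13 to 0.062 in ko CL and at 0.56 to 0.58 in wt CL; kept rises lie at 0.36 to 0.43 in ko CL and 0.40 to 0.44 in wt CL. The medians of reversed falls reach 0.71 to 1.01 in ko CL and -0.57 to -0.46 in wt CL.

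Mitochondrial energy genes lost most of their rise in ko. The 47 tested nuclear subunits of oxidative phosphorylation, which build the respiratory chain and ATP synthase, had median responses of 0.10 in ko and 1.01 in wt, and in 43 the interaction was more negative in ko (background 23.6%), with 32 lost, 9 reduced and 2 reversed. The tricarboxylic acid cycle and pyruvate entry followed, with 22 of 23 more negative (14 lost, 7 reduced, 1 reversed) and medians of 0.18 in ko and 1.27 in wt. Sdha, the flavoprotein subunit of succinate dehydrogenase (ENSMUSG00000021577, GRCm38 chromosome 13, 74322254 to 74350280, minus strand), had 469, 655 and 629 CPM in ko CL libraries and 604, 552 and 601 CPM in ko saline libraries, against 1518, 1476 and 1520.1 CPM in wt CL libraries and 628, 607 and 642 CPM in wt saline libraries. Every wt CL library lay above all others, and the ko CL libraries overlapped the saline libraries of both genotypes. The interaction of Sdha was -1.27 ± 0.15 (SE, edgeR adjusted p = 2.56e-05). Idh3g, a subunit of the NAD-dependent isocitrate dehydrogenase, repeated this with log2 responses of 0.016 ± 0.11 in ko and 1.31 ± 0.11 in wt and an interaction of -1.29 ± 0.15 (SE, edgeR adjusted p = 2.85e-05).

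Ndufb3, a complex I subunit, showed a different form of the same result. It had 80.5, 94.6 and 84.3 CPM in ko CL libraries and 155, 141 and 152 CPM in ko saline libraries, against 154, 144 and 157 CPM in wt CL libraries and 83.9, 92.6 and 96.9 CPM in wt saline libraries. Under saline the ko libraries were already at the level of wt CL, and under CL they came down to the level of wt saline. Its interaction was -1.52 ± 0.11 (SE, edgeR adjusted p = 3.68e-07). The mitochondrially encoded messenger RNAs moved in the same direction: 7 of 13 could be tested and all 7 were more negative in ko, with medians of -0.46 in ko and 1.35 in wt, 3 lost and 4 reversed. For mt-Nd2, another complex I subunit, the responses were -0.46 ± 0.12 in ko and 1.35 ± 0.13 in wt. For mt-Nd6, the strongest loss among these, there were 6.17, 8.78 and 7.20 CPM in ko CL libraries and 10.6, 7.25 and 10.1 CPM in ko saline libraries, against 41.6, 29.3 and 40.6 CPM in wt CL libraries and 9.15, 8.09 and 9.15 CPM in wt saline libraries, and its interaction was -2.41 ± 0.24 (SE, edgeR adjusted p = 6.77e-06). Mitochondrial genes together took 3.52% to 4.37% of counts in ko CL and 4.84% to 5.93% in ko saline, against 9.5% to 10.4% in wt CL and 4.42% to 4.98% in wt saline.

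The machinery that builds mitochondria shared the loss at smaller size. Mitochondrial ribosomal proteins were more negative in 34 of 37 genes (26 lost, medians of -0.0025 in ko and 0.58 in wt) and import, chaperone and protease genes in 22 of 26 (15 lost, medians of -0.0013 in ko and 0.63 in wt); with library size alone these counts were 21 and 12, in the same direction. Among the regulators, Ppargc1a, the coactivator PGC-1alpha, had 4.92, 7.58 and 9.83 CPM in ko CL libraries and 11.2, 9.81 and 11.6 CPM in ko saline libraries, against 19.8, 20.2 and 19.3 CPM in wt CL libraries and 12.2, 12.4 and 11.7 CPM in wt saline libraries. The wt CL libraries were the highest and the ko CL libraries the lowest, apart from a slight overlap of ko CL with ko saline, and the interaction was -1.27 ± 0.25 (SE, edgeR adjusted p = 0.00108). Ppara, a nuclear receptor for fatty acids, lost its rise, with responses of -0.40 in ko and 1.53 in wt and an interaction of -1.92 ± 0.30 (SE, edgeR adjusted p = 0.000206). Esrrg, the estrogen-related receptor gamma, was reversed, with responses of -0.87 in ko and 1.98 in wt and an interaction of -2.85 ± 0.34 (SE, edgeR adjusted p = 2.5e-05).

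The start sites of lost rises were searched for the core of the site for NRF1, a transcription factor of nuclear genes for mitochondria. The RefSeq windows (GRCm38.p6) run from 250 bases before to 50 after a gene's start and were matched for 12167 tested genes with 15492 windows. The letters GCATGCGC or their complement were found in 7.59% of the windows of lost rises, in 4.47% of those of all tested genes and in 2.71% of all 32851 windows. The core was in 5.54% of windows of kept rises, 5.48% of gained rises and 5.11% of reversed rises. Among falls it was in 5.18% of windows of kept falls, 4.24% of gained falls, 2.22% of reversed falls and 1.61% of lost falls. No test was made, and a match of letters is not a bound site. Windows upstream of Mrpl39, a mitochondrial ribosomal protein, and of Ppara, both lost, and of Mrpl16, also lost, which holds the cAMP response element TGACGTCA, are shown on the strand of the gene with the motif in capitals (chr16:84735324-84735403 on the minus strand, chr15:85735711-85735775 and chr19:11770330-11770409 on the plus strand).
Mrpl39: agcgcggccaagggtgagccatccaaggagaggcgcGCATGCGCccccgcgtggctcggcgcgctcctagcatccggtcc
Ppara: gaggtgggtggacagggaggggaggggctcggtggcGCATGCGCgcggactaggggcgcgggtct
Mrpl16: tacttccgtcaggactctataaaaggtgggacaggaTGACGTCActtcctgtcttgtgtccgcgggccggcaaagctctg
In Mrpl39 and Ppara the core overlaps its own complement, so that both strands match. The cAMP response element, at which CREB acts downstream of beta-adrenergic receptors, was in 3.32% of windows of lost rises, 3.94% of reversed rises, 3.25% of kept rises and 2.69% of tested genes.

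Genes that burn fatty acids lost their rise with the mitochondrial ones. Of 25 tested, 21 were more negative in ko and 3 more positive, with medians of 0.18 in ko and 1.39 in wt, 11 lost, 5 reduced and 5 reversed. Acaa1b, a peroxisomal thiolase (ENSMUSG00000010651, GRCm38 chromosome 9, 119148023 to 119157093, minus strand), had 52.7, 70.9 and 73.9 CPM in ko CL libraries and 44.6, 60.4 and 61.8 CPM in ko saline libraries, against 376, 409 and 335 CPM in wt CL libraries and 68.5, 67.8 and 66.8 CPM in wt saline libraries. Only the wt CL libraries stood out, several-fold above all other groups, and the interaction was -2.22 ± 0.19 (SE, edgeR adjusted p = 1.92e-06). Pdk4, the kinase that holds pyruvate back from the mitochondria and favours fat oxidation (ENSMUSG00000019577, GRCm38 chromosome 6, 5483351 to 5496309, minus strand), had 49.6, 40.4 and 45.2 CPM in ko CL libraries and 61.5, 62.5 and 49.5 CPM in ko saline libraries, against 227, 261 and 242 CPM in wt CL libraries and 45.5, 56.7 and 47.5 CPM in wt saline libraries. Its wt CL libraries were far above the rest, while the ko CL libraries lay below the ko saline ones but for an overlap of 1 library, and the interaction was -2.64 ± 0.16 (SE, edgeR adjusted p = 1.03e-07).

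Thermogenic genes fell into several classes. Of 28 tested, 12 were more negative in ko and 1 more positive, with median responses of 0.63 in ko and 1.67 in wt; 6 rises were reduced, 6 unresolved, 4 lost, 2 kept and 2 reversed, and with library size alone 7 were more negative. With a score of the motile cilia genes as covariate, 11 were lost, 1 reduced and none reversed. That score was higher in every ko saline library than in any ko CL library. A ko call that is missing in that fit thus does not show a missing ko response. Ucp1, which uncouples respiration from ATP synthesis in thermogenic fat cells, had 10.2, 51.9 and 51 CPM in ko CL libraries and 0.181, 0.0732 and 0.0638 CPM in ko saline libraries, against 94.6, 78.5 and 76.6 CPM in wt CL libraries and 0.339, 0 and 0.249 CPM in wt saline libraries. Both CL groups lay far above both saline groups, which were near 0, and ko CL library 1 was the lowest of the CL libraries. The interaction of Ucp1 was -0.23 ± 2.63 (SE, edgeR adjusted p = 0.951), with a 95% interval of -5.92 to 5.46, so that neither a loss nor a kept response can be read from it. Its fitted fold changes rest on a handful of counts under saline. Under CL, where counts are ample, ko was lower than wt, with a difference (ko minus wt) of -1.15 on the log2 scale (edgeR adjusted p = 0.0267).

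Among other brown-fat genes, the interactions of Cidea and Dio2 were called, but not in every setting. Cidea, a lipid droplet protein of brown fat, had 3.12, 15.3 and 9.57 CPM in ko CL libraries and 3.34, 2.34 and 3.45 CPM in ko saline libraries, against 91.8, 68.2 and 85.4 CPM in wt CL libraries and 4.71, 7.04 and 11.6 CPM in wt saline libraries. The wt CL libraries were all above the others, whereas ko CL library 1 lay within the ko saline range, and the interaction of -1.78 ± 0.62 (SE, edgeR adjusted p = 0.0334) lost its call in 8 of 18 alternative settings. Dio2, the deiodinase that makes active thyroid hormone, had responses of 1.14 in ko and 2.47 in wt and an interaction of -1.33 ± 0.44 (SE, edgeR adjusted p = 0.0268), lost in 5 settings. The cytochrome oxidase subunits Cox7a1 and Cox8b and the elongase Elovl3 were unresolved, with 95% intervals of the interaction of -1.84 to 0.08, -2.31 to 0.19 and -4.58 to 1.16.

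Lipid synthesis lost much of its rise beside oxidation. Fatty acid and triglyceride synthesis had 22 of 28 genes more negative in ko and none more positive, with medians of 0.19 in ko and 1.22 in wt and 14 lost, 4 reversed and 3 reduced. Slc25a1, the carrier that exports citrate from mitochondria, kept part of its rise, with responses of 0.58 in ko and 2.22 in wt and an interaction of -1.63 ± 0.19 (SE, edgeR adjusted p = 2.05e-05). Acly, which cleaves that citrate, had responses of 0.94 in ko and 2.14 in wt, with an interaction of -1.20 ± 0.34 (SE, edgeR adjusted p = 0.0113), and Acaca, the next enzyme, of -0.055 in ko and 1.42 in wt, with an interaction of -1.48 ± 0.29 (SE, edgeR adjusted p = 0.00125). Fasn, the fatty acid synthase, was at 0.30 in ko and 0.96 in wt and its interaction of -0.66 ± 0.32 (SE, edgeR adjusted p = 0.11) was not called, with a 95% interval of -1.35 to 0.03. Scd1, the stearoyl-CoA desaturase, lost its rise, with an interaction of -0.89 ± 0.30 (SE, edgeR adjusted p = 0.0262), a call that was lost with library size alone and without ko saline 1, wt CL 3 or wt saline 1. Dgat1, which makes triglyceride, was reversed, at -0.82 in ko and 0.44 in wt.

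Cholesterol synthesis lost more than it kept, with 20 of 24 genes more negative, medians of -0.31 in ko and 1.19 in wt, 10 lost and 9 reversed. Cyp51, lanosterol demethylase (ENSMUSG00000001467, GRCm38 chromosome 5, 4081145 to 4104746, minus strand), had 36.8, 53.6 and 59.6 CPM in ko CL libraries and 41.7, 39.4 and 45.3 CPM in ko saline libraries, against 277, 307 and 371 CPM in wt CL libraries and 49, 54.6 and 42.4 CPM in wt saline libraries. No ko library reached the lowest wt CL library, and ko CL overlapped both saline groups. The interaction was -2.47 ± 0.23 (SE, edgeR adjusted p = 2.88e-06), a 5.53-fold difference between the responses. Insig1, which restrains sterol synthesis and is itself switched on by SREBP, was reversed, with responses of -0.44 ± 0.13 in ko and 2.07 ± 0.13 in wt and an interaction of -2.51 ± 0.19 (SE, edgeR adjusted p = 4.93e-07). The SREBP site TCACNCCAC was found in 1.23% of windows of lost rises, against 1.19% of tested genes.

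**Figure D3:**
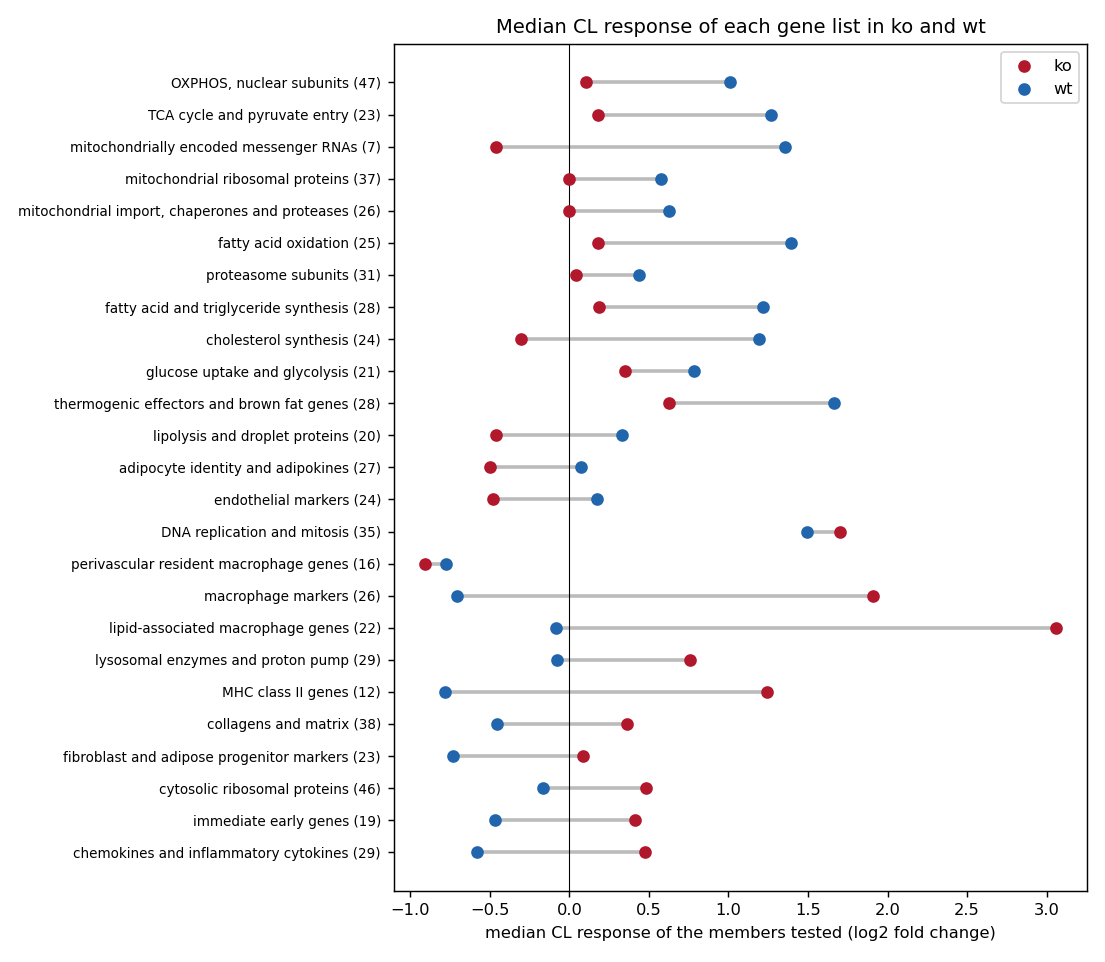
The median log2 CL response of the tested members of 25 gene lists is shown for ko and wt, joined by a grey line, with the number tested in brackets. Mitochondrial, oxidation and synthesis lists are higher in wt (0.10 in ko and 1.01 in wt for nuclear OXPHOS subunits), DNA replication and mitosis genes lie close together (1.70 in ko and 1.49 in wt), and lipid-associated macrophage genes are higher in ko (3.06 in ko and -0.084 in wt), unlike resident macrophage genes (-0.91 in ko and -0.78 in wt).

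Smaller, general rises were lost as well. Proteasome subunits, which rose little in wt, had 26 of 31 more negative (24 lost, medians of 0.043 in ko and 0.43 in wt), but with library size alone 5 were more negative and 3 lost. Glucose uptake and glycolysis had 12 of 21 more negative and 2 more positive, with medians of 0.35 in ko and 0.78 in wt, and 6 more negative with library size alone. Ldha, lactate dehydrogenase A, lost its rise (-0.064 in ko and 0.99 in wt) and Pgk1, phosphoglycerate kinase, kept a smaller one (0.37 in ko and 1.19 in wt). The leading lost rises were Hephl1, a ferroxidase-like protein with 1 high ko saline library (0.46 in ko and 3.03 in wt), Cyp51, mt-Nd6 and Acaa1b. Lost falls were led by Hspb7, a small heat shock protein (-0.26 in ko and -3.89 in wt), Cilp, a cartilage matrix protein, Iqgap2, a scaffold protein (0.32 in ko and -1.54 in wt), and Lyz1, a lysozyme whose near-identical copy Lyz2 makes its counts uncertain. Cilp had 113, 78.9 and 82.3 CPM in ko CL libraries and 62.9, 86.3 and 84.3 CPM in ko saline libraries, against 20.6, 24.2 and 19.1 CPM in wt CL libraries and 82.4, 66.6 and 82.1 CPM in wt saline libraries. All wt CL libraries were below the other groups, which overlapped, and the interaction was 2.08 ± 0.22 (SE, edgeR adjusted p = 1.05e-05).

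Adipocyte genes were more negative in ko than in wt under CL. Of 27 identity genes and adipokines tested, 19 were more negative in ko and none more positive, with medians of -0.50 in ko and 0.071 in wt, 7 gained falls, 5 reversed rises and 3 enhanced falls. With library size alone 12 were more negative, the wt median was -0.24, and 4 falls were gained, 1 rise reversed and 5 falls enhanced. Adipoq, the hormone adiponectin, had 1073, 1465 and 1299.7 CPM in ko CL libraries and 3421, 3239 and 3454 CPM in ko saline libraries, against 2859, 2613 and 2829 CPM in wt CL libraries and 3004, 3386 and 3610.4 CPM in wt saline libraries. The ko CL libraries lay well below all others, and the ko saline libraries were among the wt ones, with an interaction of -1.13 ± 0.16 (SE, edgeR adjusted p = 9.72e-05). Rbp4, a retinol carrier secreted by fat, had responses of -1.62 ± 0.079 in ko and 0.35 ± 0.077 in wt and an interaction of -1.96 ± 0.11 (SE, edgeR adjusted p = 6.87e-08). Lep, leptin, fell in both genotypes and more in ko (-1.67 in ko and -1.0 in wt). Pparg and Cebpa, the transcription factors that hold fat cell identity, had small responses (-0.41 in ko and 0.17 in wt, and -0.50 in ko and -0.06 in wt). Their interactions of -0.58 ± 0.16 (SE, edgeR adjusted p = 0.0108) and -0.44 ± 0.14 (SE, edgeR adjusted p = 0.0192) were not called with library size alone.

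The gene for the beta-3-adrenergic receptor fell in both genotypes and further in ko. Adrb3 (ENSMUSG00000031489, GRCm38 chromosome 8, 27225776 to 27250616, minus strand), had 62.7, 82.6 and 73.8 CPM in ko CL libraries and 372, 419 and 435 CPM in ko saline libraries, against 541, 511 and 511 CPM in wt CL libraries and 698, 772 and 754 CPM in wt saline libraries. The 4 groups did not overlap: ko CL was lowest, then ko saline, wt CL and wt saline. Its interaction was -1.98 ± 0.14 (SE, edgeR adjusted p = 3.14e-07), a 3.93-fold difference between the responses. Lipolysis and droplet proteins had 13 of 20 more negative in ko and 1 more positive, with medians of -0.46 in ko and 0.33 in wt. Pde3b, which breaks down cAMP in fat cells, gained a fall (-1.16 in ko and 0.013 in wt), Mgll, the monoglyceride lipase, was reversed (-0.85 in ko and 0.40 in wt), and Adcy3, an adenylyl cyclase, gained a rise (2.22 in ko and 0.18 in wt).

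The leading reversed rises were Rims4, known from synaptic vesicle release, Rbp7, a retinol-binding protein, Eci3, an enoyl-CoA isomerase, and Paqr9, of the adiponectin receptor family. Their responses were -0.97 in ko and 1.48 in wt, -1.50 in ko and 0.91 in wt, -1.81 in ko and 0.49 in wt and -1.13 in ko and 1.15 in wt. Eci3 was also lower in ko under saline (ko minus wt -1.19 on the log2 scale, edgeR adjusted p = 0.000279). Gained falls were led by Pkd2l2, a channel protein (-1.91 in ko and 0.22 in wt), Amy1, an amylase of a family of near-identical copies (-1.91 in ko and 0.03 in wt), Dnaja4, a cochaperone (-2.07 in ko and -0.38 in wt), and Inca1, an inhibitor of cyclin-dependent kinase (-1.35 in ko and 0.33 in wt). Dnaja4 differed from the others in that ko saline was the group that stood apart, at 72.7 to 81.6 CPM, against 19.6 to 39.6 CPM in wt saline.

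Endothelial markers were also more negative in ko. Of 24, 19 were more negative in ko and 1 more positive, with medians of -0.48 in ko and 0.17 in wt, 11 gained falls and 6 reversed rises. With library size alone 12 were more negative, none was a reversed rise and the wt median was -0.14. Gpihbp1, which anchors lipoprotein lipase to capillaries, had responses of -1.01 in ko and 0.46 in wt, and Cldn5, a tight junction protein of vessels, of -1.15 in ko and 0.24 in wt. The adipocyte genes summed to 25920.3 to 31734 CPM in ko CL and 41008 to 42148 CPM in ko saline, against 60674 to 65071 CPM in wt CL and 55183 to 58171 CPM in wt saline. The endothelial markers summed to 5133 to 7689 CPM in ko CL and 9324 to 9797 CPM in ko saline, against 19295 to 19958 CPM in wt CL and 13500.2 to 14495 CPM in wt saline. Fabp4 belongs to both lists, so both sums hold its counts. In bulk tissue, fewer cells of a type and less RNA per cell cannot be told apart.

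Macrophage genes turned in opposite directions in the genotypes. Of 26 markers, 19 were more positive in ko (background 21.8%) and 2 more negative, with medians of 1.91 in ko and -0.70 in wt, with 14 that rose in ko and fell in wt and 4 that rose in ko alone. Cd68, a lysosomal glycoprotein of macrophages (ENSMUSG00000018774, GRCm38 chromosome 11, 69664213 to 69666153, minus strand), had 562, 361 and 429 CPM in ko CL libraries and 28.8, 30.9 and 35.1 CPM in ko saline libraries, against 26.7, 21 and 19.9 CPM in wt CL libraries and 29.5, 39.4 and 29.3 CPM in wt saline libraries. The ko CL libraries were far above every other library. In wt the CL libraries lay below the saline ones, and the interaction was 4.37 ± 0.25 (SE, edgeR adjusted p = 7.07e-08). Ctss, the protease cathepsin S (ENSMUSG00000038642, GRCm38 chromosome 3, 95526786 to 95556403, plus strand), repeated the pattern with 1923, 1414 and 1484 CPM in ko CL libraries and 94.6, 105 and 99.9 CPM in ko saline libraries, against 68.7, 48.2 and 54 CPM in wt CL libraries and 79.4, 90.8 and 85.8 CPM in wt saline libraries, again with ko CL far above and wt CL below every other group, and an interaction of 4.59 ± 0.20 (SE, edgeR adjusted p = 2.33e-08). Adgre1, the F4/80 antigen, and Csf1r, the receptor for the growth factor CSF-1, had interactions of 4.07 ± 0.22 (SE, edgeR adjusted p = 5.92e-08) and 2.92 ± 0.17 (SE, edgeR adjusted p = 8.51e-08).

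The other leading reversed falls were Adam8, a metalloprotease of myeloid cells (4.60 in ko and -0.67 in wt), F10, clotting factor X (3.45 in ko and -1.49 in wt), and Arl11, a small GTPase (3.61 in ko and -1.02 in wt). The summed level of the macrophage markers was 10117 to 13892 CPM in ko CL and 2296 to 2387 CPM in ko saline, against 1293 to 1530.2 CPM in wt CL and 2412 to 2500.2 CPM in wt saline, and none of the 26 was at 0 in any library. How far this rise in macrophage RNA takes part in the lower share of adipocyte, mitochondrial and endothelial RNA in ko CL was not tested.

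Lipid-associated macrophage genes, known from macrophages around dying or lipid-laden fat cells, rose far in ko. Of 22, 17 were more positive and 2 more negative, with medians of 3.06 in ko and -0.084 in wt, 13 gained rises and 4 reversed falls with TMM and 9 and 8 with library size alone. Gpnmb, a glycoprotein of lysosomes (ENSMUSG00000029816, GRCm38 chromosome 6, 49036546 to 49070929, plus strand), had 3901, 2329 and 3249 CPM in ko CL libraries and 17.5, 19.2 and 24.7 CPM in ko saline libraries, against 43.5, 15.3 and 12.4 CPM in wt CL libraries and 14.2, 14.3 and 18.3 CPM in wt saline libraries. All ko CL libraries stood far above the rest, among which wt CL library 1 was the highest. The interaction of Gpnmb was 6.67 ± 0.54 (SE, edgeR adjusted p = 1.11e-06). Atp6v0d2, a proton pump subunit (6.27), Spp1, osteopontin (6.10), and Trem2, a lipid receptor (5.47), had similarly large interactions. So did F7, clotting factor VII (6.15), and Vsig8, an immunoglobulin-domain protein (7.11), which are not members of this list. Lysosomal enzymes and proton pump subunits had 23 of 29 more positive and 3 more negative, with 10 reversed falls and 10 gained rises, and 19 and 4 with library size alone. Psap, prosaposin, gained a rise (2.14 in ko and -0.022 in wt).

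Perivascular resident macrophage genes were divided. Of 16, 7 were more positive and 5 more negative in ko, and the median interaction was -0.13, above 0 with library size alone (0.10). Lyve1, a hyaluronan receptor, fell in both genotypes and further in ko (-2.01 in ko and -1.16 in wt), and Cd163, a haemoglobin scavenger receptor, kept its fall (-0.82 in ko and -0.75 in wt, interval of the interaction -0.36 to 0.21). Selenop, a selenium carrier, gained a rise (1.98 in ko and 0.18 in wt), and Folr2 and Mrc1, a folate and a mannose receptor, were reversed (1.32 in ko and -0.71 in wt, and 0.96 in ko and -0.81 in wt). The resident markers thus fell into several classes.

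The letters GAGGAAGT, a site for the macrophage factor PU.1, were found on either strand in 6.17% of the windows of reversed falls and 4.56% of those of gained rises, against 3.18% of windows of tested genes and 3.2% of all windows. Among lost rises the share was 2.66% and among gained falls 2.33%. The upstream windows of Spp1 (chr5:104434962-104435041) and Selenop (chr15:3270550-3270629), both on the plus strand and both gained rises, show the match in capitals, in Selenop as its complement.
Spp1: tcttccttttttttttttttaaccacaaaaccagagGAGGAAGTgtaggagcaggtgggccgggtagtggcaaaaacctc
Selenop: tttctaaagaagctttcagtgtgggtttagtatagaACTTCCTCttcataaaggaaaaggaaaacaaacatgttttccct
These shares are descriptions of letters and were not tested. The site TCACGTGA, read by the MiT family of lysosomal regulators, was in 2.05% of windows of gained rises, 2.29% of kept rises and 1.6% of tested genes, and the element TCAAGGTCA of estrogen-related receptors in 0.285% of lost rises and 0.265% of tested genes.

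MHC class II genes, which present antigen, rose in ko and fell in wt in 8 of 12 members, with 9 more positive and medians of 1.24 in ko and -0.78 in wt. Cd74, the invariant chain, had responses of 1.35 ± 0.15 in ko and -0.87 ± 0.15 in wt, and H2-DMa, which loads peptides, of 1.09 ± 0.11 in ko and -0.97 ± 0.12 in wt. Markers of neutrophils, mast cells and eosinophils had 11 of 16 more positive and 2 more negative. T and NK cell markers had 4 of 21 more positive and 1 more negative, and B and plasma cell markers 8 of 18 and 1. Of all genes, 21.8% were more positive, so the T and NK count was no higher than that share. Csf3r, the receptor of the neutrophil growth factor, was reversed (2.75 in ko and -0.45 in wt), and Cpa3, a mast cell protease, gained a rise (1.41 in ko and 0.08 in wt). Chemokines and inflammatory cytokines had 16 of 29 more positive and 2 more negative, among them Ccl6 and Ccl9, chemokines made by macrophages (1.91 in ko and -1.11 in wt, and 2.65 in ko and -1.12 in wt).

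Matrix and stromal genes were more positive in ko, at lower amplitude. Collagens and matrix had 25 of 38 more positive in ko and 3 more negative, with medians of 0.36 in ko and -0.46 in wt. There were 14 reversed falls, 7 gained rises and 4 lost falls. With library size alone these were 14, 3 and 11, and with the motile cilia covariate 5, 9 and 9. Col14a1, a fibril-associated collagen, had responses of 0.87 ± 0.12 in ko and -0.96 ± 0.12 in wt, and Mmp2, a gelatinase, of 1.68 ± 0.11 in ko and -0.11 ± 0.11 in wt. Fibroblast and progenitor markers had 11 of 23 more positive and none more negative, with 6 lost and 6 kept falls. Pdgfra, the receptor that marks adipose progenitors, was reversed (0.83 in ko and -0.61 in wt), and Dpt, dermatopontin, lost its fall (-0.18 in ko and -1.44 in wt).

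Most cytosolic ribosomal protein genes rose in ko. Of 46, 42 were more positive and none more negative, with medians of 0.48 in ko and -0.17 in wt. With TMM 32 were gained rises and 9 reversed falls, and with library size alone 1 and 38, beside 7 lost falls. The interaction and the direction of the median ko response (0.39 with library size alone) held, while the wt fall depended on the scaling. With the motile cilia covariate 20 were gained rises, none was a reversed fall and 19 had a called interaction with neither response called. The median ko response was 0.46 in that fit. Rpl10a and Rpl12, of the large subunit, had interactions of 1.04 ± 0.13 (SE, edgeR adjusted p = 5.1e-05) and 1.03 ± 0.15 (SE, edgeR adjusted p = 0.000147). Immediate early genes, which answer stimulation within minutes, had 11 of 19 more positive and none more negative; Atf3, a stress factor, gained a rise (4.49 in ko and -0.50 in wt) and Egr2, a zinc finger factor, was reversed (3.38 in ko and -0.99 in wt).

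**Figure D4:**
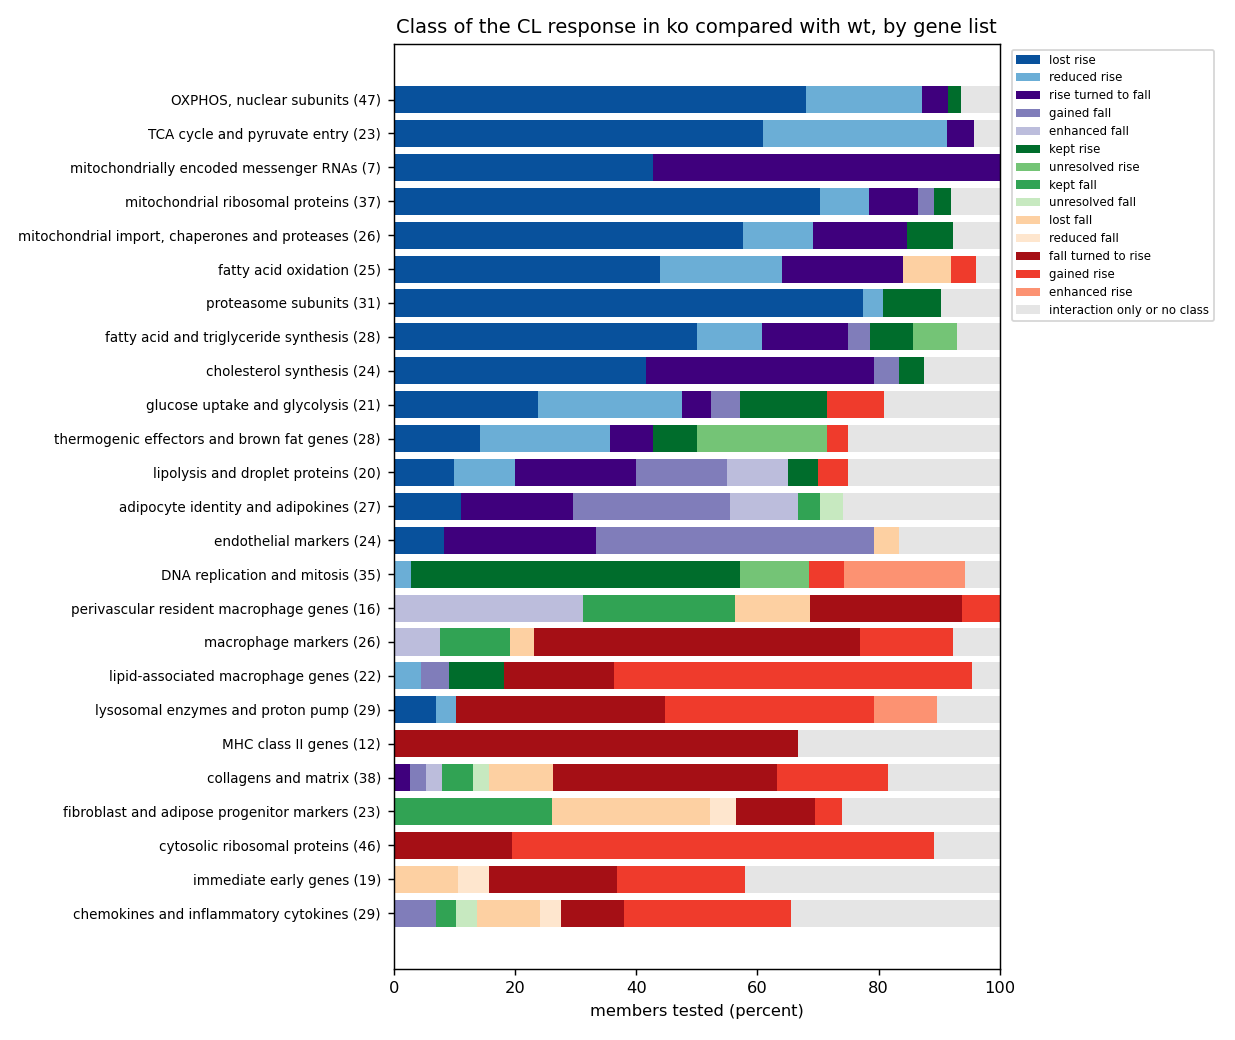
Each bar splits the tested members of a gene list (number in brackets) into classes, in percent. Blue marks lost and reduced rises, and purple marks falls that ko gained, enhanced or showed instead of a rise. Green marks kept or unresolved responses, and pale orange marks lost and reduced falls. Red marks rises that ko gained, enhanced or showed instead of a fall, and grey marks the rest. Of 47 nuclear OXPHOS subunits 32 are lost rises, of 35 replication and mitosis genes 19 are kept rises, and of 22 lipid-associated macrophage genes 13 are gained rises.

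DNA replication and mitosis genes mostly kept or enhanced their rise. Of 35, 19 kept their rise, 7 had it enhanced, 4 were unresolved, 2 were gained and 1 reduced, and medians were 1.70 in ko and 1.49 in wt. Top2a, the topoisomerase that untangles chromosomes (ENSMUSG00000020914, GRCm38 chromosome 11, 98992943 to 99024189, minus strand), had 65.6, 51.6 and 49 CPM in ko CL libraries and 13.2, 11.6 and 16.6 CPM in ko saline libraries, against 45.8, 42.9 and 42.7 CPM in wt CL libraries and 9.00, 12.9 and 9.04 CPM in wt saline libraries. Every CL library lay above every saline library in both genotypes, and the interaction of -0.091 ± 0.22 (SE, edgeR adjusted p = 0.765) had a 95% interval of -0.57 to 0.39. Mki67, the proliferation antigen Ki-67, behaved likewise (2.14 in ko and 2.10 in wt, interval -0.48 to 0.56). Mcm6, of the replicative helicase, and Cenpa, the centromeric histone, rose further in ko (1.24 in ko and 0.34 in wt, and 2.06 in ko and 0.89 in wt). Which cells carried these rises is not recorded in bulk RNA.

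Other kept rises were Rgs2, a brake on G protein signalling (2.47 in ko and 2.03 in wt), and Adam12, a metalloprotease of fat and muscle progenitors (1.75 in ko and 1.73 in wt, interval -0.46 to 0.50). The interval of Rgs2 ran from -0.079 to 0.96, close to the limit, and its interaction was called in 3 alternative settings. The kept falls were led by Bmp3, a bone morphogenetic protein (-2.01 in ko and -2.18 in wt), Synpo2, an actin-bundling protein (-2.02 in ko and -1.95 in wt), Plagl1, an imprinted zinc finger factor (-1.72 in ko and -1.77 in wt), and Eepd1, a nuclease-domain protein (-1.62 in ko and -1.90 in wt). Sfrp5, a Wnt antagonist that fat cells secrete, fell to 0.501 to 1.18 CPM in ko CL, against 20.3 to 41.6 CPM in ko saline, and to 0.204 to 0.839 CPM in wt CL, against 21.1 to 32.3 CPM in wt saline. Its interaction interval of -0.87 to 2.25 leaves it unresolved. Nnat, neuronatin, an imprinted gene of growing fat, fell in both, with the smaller fall in ko. Its responses were -3.16 ± 0.25 in ko and -5.02 ± 0.27 in wt, with an interaction of 1.86 ± 0.34 (SE, edgeR adjusted p = 0.000729).

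**Figure D5:**
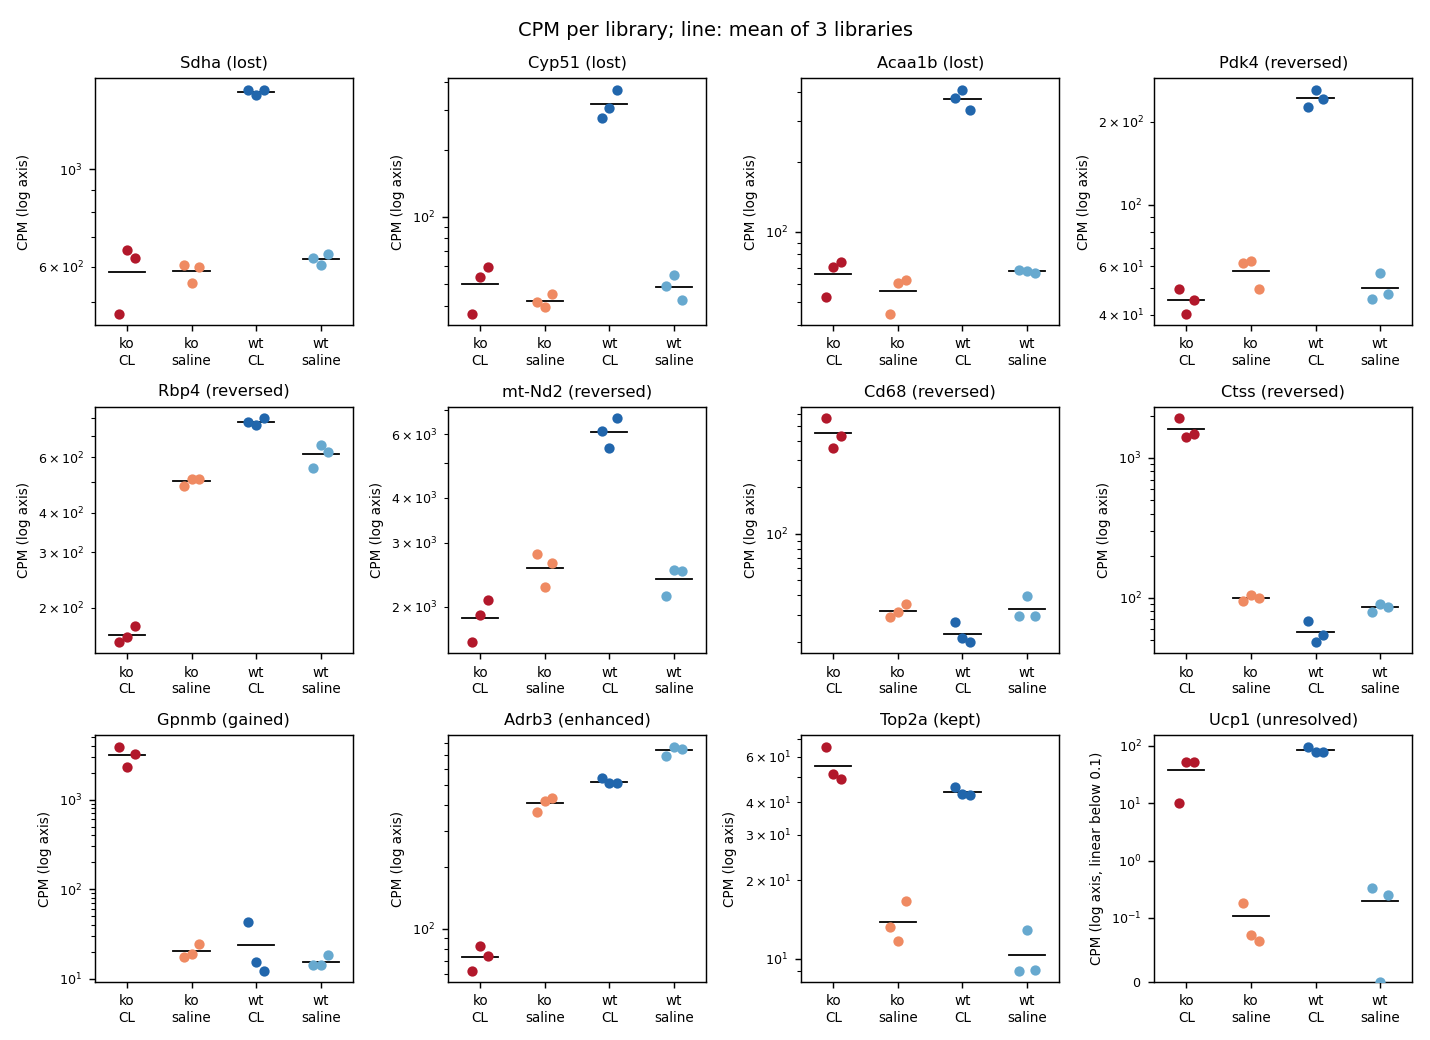
CPM of 12 genes in each library, on a log axis, with the line at the mean of 3 libraries and the class in brackets. Sdha, Cyp51, Acaa1b and Pdk4 are high in wt CL alone (1476 to 1520 CPM for Sdha); Cd68, Ctss and Gpnmb are high in ko CL alone (2329 to 3901 CPM for Gpnmb); Top2a is high in both CL groups.

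Some falls were deep, and for motile cilia genes the wt value leaned on 1 library. Of the unresolved falls, 70 fell by at least 3 on the log2 scale in both genotypes, and 29 of these were higher in ko saline than in wt saline. Motile cilia genes had medians of -3.09 in ko and -3.15 in wt, with 4 of 30 more negative in ko and 1 more positive, and 12 unresolved falls. Without wt saline library 1 the wt median was -1.12, the median interaction -1.51 against 0.025 with it, 9 genes were more negative in ko and none was an unresolved fall. Their part in the count of falls was not tested. With a score of these cilia genes taken into the model, 3284 genes were more positive and 3476 more negative in ko.

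Within the Cdk7 complex and the TFIIH core, 2 of 10 genes were more positive in ko and 4 more negative, against 21.8% and 23.6% of all genes. Their median interaction of -0.13 turned to 0.10 with library size alone. Gtf2h5, the smallest TFIIH subunit, was reversed (-0.46 in ko and 0.49 in wt), as was Gtf2h3 (-0.23 in ko and 0.40 in wt). Ccnh, cyclin H, the partner of Cdk7, was at -0.22 in ko and -0.056 in wt, with an interaction of -0.16 ± 0.12 (SE, edgeR adjusted p = 0.298). Mnat1, the assembly factor, had an interaction of -0.28 ± 0.10 (SE, edgeR adjusted p = 0.0418) that was lost in 14 settings.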

How the data were processed

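RNA-seq was made from perigonadal fat, 3 libraries per group. The deposited values were raw counts per gene; per the submitters' processing notes, the authors used STAR, HTSeq and GRCm38, without versions. HTSeq's summary lines, 12.5% to 17.2% of all reads, were left out. GENCODE M21 named 53274 of 53379 gene IDs. Genes passed edgeR 4.0.16 filterByExpr (minimum count 10) and were fitted with TMM scaling, 1 mean per group and quasi-likelihood F tests (R 4.3.3, 8 residual degrees of freedom, biological coefficient of variation 11.5%), with Benjamini-Hochberg adjustment over all genes. The SE is the log2 value divided by the root of F, and CPM are TMM-scaled. Other fits used DESeq2 1.42.0, other scalings, filters and thresholds, a replicate block, a motile cilia covariate, and each library left out. Only the main fit was run on simulated data. Members and the 41 gene lists were chosen with earlier results of these data known. Named genes were the 4 with the largest interaction per class and direction (kept: the largest response; at least 20 CPM, no overlap between treatments in the called responses, stable calls), up to 3 per list with the smallest adjusted p, and 38 fixed genes. Libraries of 1 group differed by more than sampling noise. Replicate numbers did not pair libraries: of 18 same-number pairs, 2 had deviations that correlated above 0.1.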

Additional observations from a re-analysis of the deposited data

Results flagged for a closer look

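The responses in the genotypes differed by the test of the difference itself for 3607 genes that were more positive in ko and 3903 that were more negative in ko. Among single genes with a tested difference between genotypes, the interaction on the log2 scale was -1.27 for Ppargc1a and -2.64 for Pdk4, both of which rose in wt and fell in ko. It was 4.37 for Cd68, 4.07 for Adgre1 and 2.92 for Csf1r, which rose in ko and fell in wt. With 3 libraries per group, single libraries were not tested as outliers.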

How the results depend on the processing

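With each library left out in turn, 3232 to 3541 genes were more positive in ko and 3505 to 3907 more negative. DESeq2 called 3611 and 3773. With the replicate block, 3429 were more positive and 3718 more negative. Same-number libraries correlated at -0.36 to 0.18 and unlike-number libraries at -0.42 to 0.37. These values show no pairing by number but cannot exclude one, since libraries also differ in other material. Of 156 named genes with a called interaction, 146 stayed called in all 18 alternative fits. Selection fixed part of this count. Leaders of the lost, reversed and gained classes had to stay called without each library and with the cilia covariate. List members were taken by their smallest p-values.

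Scaling and the cilia covariate moved many counts. With library size alone, 2267 genes were more negative, and wt responses were 1329 higher and 8048 lower. Lost rises then numbered 423 and lost falls 1889, reversed rises 281 and reversed falls 1951, gained rises 1076, kept rises 181 and kept falls 1721. Of the 1133 lost rises, 402 were also lost under that scaling. The motile cilia covariate gave 2630 rises and 2009 falls in ko, 199 reversed rises, 385 reversed falls, 239 kept rises and 257 kept falls, at the cost of a degree of freedom. An adjusted p of 0.01 gave 310 lost falls, 319 reversed rises, 395 reversed falls and 337 kept rises, and a kept interval within 1.5-fold gave 344 kept falls. Except for these settings the cause was not tested.

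Counts of 3 classes depended on single libraries. Reduced rises were 225 without ko CL 1, 90 without ko CL 2, 85 without ko CL 3, 72 without ko saline 2 and 77 without ko saline 3. Enhanced rises were 76 without wt CL 2, 82 without wt CL 3, 79 without wt saline 1 and 75 without wt saline 3. Unresolved falls were 213 without wt CL 2, 214 without wt CL 3 and 216 without wt saline 1. Depth limits genes near 0 under saline, such as Ucp1.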

Other observations

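Lymphocyte lists were split between members. Il7r, the interleukin-7 receptor, gained a rise (5.13 in ko and -0.29 in wt), as did Cd22, a sialic acid receptor (4.58 in ko and 0.20 in wt), while Blnk, an adaptor protein, and Sdc1, a syndecan, were reversed (3.55 in ko and -0.80 in wt, and 2.12 in ko and -0.79 in wt). The defining T cell marker Cd3e, picked after its values were seen, had no called interaction (-0.52 in ko and 0.018 in wt). The T and NK genes summed to 165 to 220.3 CPM in ko CL and 34.3 to 54.2 CPM in ko saline, against 27.3 to 46.1 CPM in wt CL and 36.2 to 47.2 CPM in wt saline. Il7r, at 5.13 in ko, belongs to this sum, whereas the median ko response of the T and NK list was 0.32. The sum thus need not describe most members. Without wt CL 3, 7 T and NK genes were more positive. The median interaction of B and plasma cell genes was 1.35, and 0.59 without ko CL 2.

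The counts of the following lists stand beside 21.8% more positive and 23.6% more negative among all genes. Clock genes had 6 of 18 more negative (3 with library size alone), and Cry1, a clock repressor, lost its rise (-0.046 in ko and 1.04 in wt). Targets of p53 had 4 of 19 more positive and 9 more negative; Cdkn1a, the inhibitor p21, was reversed (-0.53 in ko and 0.80 in wt), and so was Sesn1, sestrin 1, the other way (1.28 in ko and -0.40 in wt). Wnt regulators and imprinted genes had 7 of 21 more positive and 3 more negative; H19, an imprinted RNA, gained a rise (3.96 in ko and 0.38 in wt), and Sfrp4, a Wnt inhibitor, lost its fall (0.10 in ko and -1.39 in wt). In the stress lists, Asns, asparagine synthetase, was reversed (-0.34 in ko and 0.92 in wt), with 8 of 23 stress genes more positive and 6 more negative. Aminoacyl-tRNA synthetases had 7 of 17 more negative (2 with library size alone). Interferon-stimulated genes (6 and 5 of 24) and cAMP signalling genes (6 and 11 of 30) were more positive and more negative, against 21.8% and 23.6% of all genes, with medians whose sign turned with library size alone. Mitochondrial biogenesis regulators had 1 of 20 more positive and 12 more negative. Smooth muscle markers had 7 of 18 more negative, mesothelial markers 8 of 17 more positive (13 with library size alone and 5 with the cilia covariate), and duct and epithelial genes 1 of 17 each way.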
